A study of Bos taurus with 8 samples.

Results

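Xenobiotic and aldehyde metabolism enzymes were followed in the lungs of newborn calves, as the transcripts of the cytochrome P450, flavin-containing monooxygenase (FMO), aldehyde dehydrogenase (ALDH), glutathione transferase (GST and MGST), sulfotransferase (SULT) and UDP-glucuronosyltransferase (UGT1A and UGT2) families, together with EPHX1, EPHX2, POR and ARNT. Members were chosen by bovine gene symbol, from probes of an Agilent array whose accession matched 1 RefSeq gene. Of 76 such genes on the array, 65 had a probe well above background on at least 4 of 8 arrays, and each was represented by its brightest such probe. On that probe 63 were well above background on all 8 arrays, and UGT1A6, on 4 of 8, was at the limit. The 11 genes not carried further were CYP19A1, CYP26A1, CYP26B1, CYP2C23, CYP2C89, CYP2E1, GSTA5, SULT1C3, SULT2A1, SULT4A1 and UGT2B10. Of these, CYP2C23 and GSTA5 came closest, with a probe well above background on 3 of 8 arrays. The 65 were 25 P450, 14 ALDH, 11 GST or MGST, 4 FMO, 4 SULT and 3 UGT genes and the 4 single genes, out of 9867 genes with a symbol that passed the same limit.

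The animals were Holstein calves, 4 of them cloned and labelled with respiratory failure, and 4 naturally conceived and labelled healthy. All samples are labelled as lung of 4 days, and the series text states that the clones died of respiratory failure by then and that the healthy calves were slaughtered at that age. Each calf gave 1 RNA sample and 1 one-colour array. The age of each clone at death, the number of donor cell lines and the part of the lung taken are not given in the sources used here.

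These enzymes work in sequence. P450s, which draw their electrons from the reductase POR, and FMOs add oxygen to foreign compounds, steroids, fatty acids and retinoids; epoxide hydrolases open the epoxides that P450s form, and aldehyde dehydrogenases oxidise aldehydes. GSTs, SULTs and UGTs then attach glutathione, sulfate or glucuronic acid, which makes the products easier to excrete. In the lung, non-ciliated (club) cells of the bronchioles are the best-known site of P450 activity, with a share in alveolar type II cells and capillary endothelium.

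Levels are log2 processed signals relative to the 75th percentile of the same array, so a level of 0 lies at that percentile, and a level is compared between animals for 1 probe, never between probes. All clone arrays shared 1 slide and all normal arrays shared a second one, so slide and group cannot be told apart. DDX3Y and USP9Y, both Y-linked, were detected in 3 of 4 clones (all but clone 1) and in no normal animal, and the part of sex in the results was not tested. Relative to the 75th percentile, 10 of 10 spike-in controls were higher on clone arrays, by a median of 0.67, so differences are relative to other lung transcripts. Of 10 surfactant and alveolar type II cell markers of lung, NAPSA had no probe with its symbol. The other 9 were well above background on all arrays, with a mean level of 2.61 to 3.78 in clones and 3.22 to 3.31 in normal animals. Fewer cells of a type and less RNA per cell cannot be told apart in whole lung.

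None of the 65 genes differed past the threshold in the comparison of clones with normal animals (limma, adjusted p under 0.05 by Benjamini-Hochberg over 35636 probes), where 0.177% of all probes did, 0.0477% with higher and 0.129% with lower values in clones. At an unadjusted p under 0.05 there were 15 of 65 genes, or 23.1%, beside 13.2% of all probes. Of these, 9 had lower and 6 had higher values in clones, beside 7.1% and 6.06% of all probes. In 41 of 65 genes the difference was negative (63.1%, beside 52.1% of probes), and the median difference was -0.18 over the 65 and -0.021 over all probes. At least 2-fold lower means in clones were found for 8 genes, or 12.3%, beside 4.33% of probes, and a mean at least 2-fold higher for 1 gene, or 1.54%, beside 3.01%. The groups were fully separate in 10 genes, or 15.4%, of which 7 lay lower and 3 higher in clones, beside 10.1% of all probes (5.37% lower and 4.75% higher).

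The count of genes past the threshold depended on single animals. Without clone 1, 6 of the 65 genes passed, where 7.19% of all probes did, among them ALDH1A1, CYP51A1, GSTA3 and SULT1B1 with lower and GSTT1 with higher values in clones. All clones left in that subset had Y-linked transcripts detected and no normal animal did, so sex and group cannot be told apart in it. Without clone 3 only SULT1A1 passed (1.27% of all probes), and without normal animal 3 only CYP2B6 did (0.087% of all probes). With array weights, which gave clones 1 and 3 little weight, 21 genes passed, where 31.3% of all probes did. In 50 of the 65 genes leaving out 1 of the 8 animals moved the difference by over 1.5 times or changed its sign. In 16 it changed the sign. A difference near 0 meets this limit easily, and the share over all probes was not computed, so the count is a description only.

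The plot of differences by gene orders 64 of the genes within each family. Large negative differences were those of GSTA3, CYP2B6 and CYP4B1, and the largest positive ones those of the 3 CYP3A genes, of which CYP3A28 was negative with normexp background correction and 75th percentile centring.

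**Figure D1:**
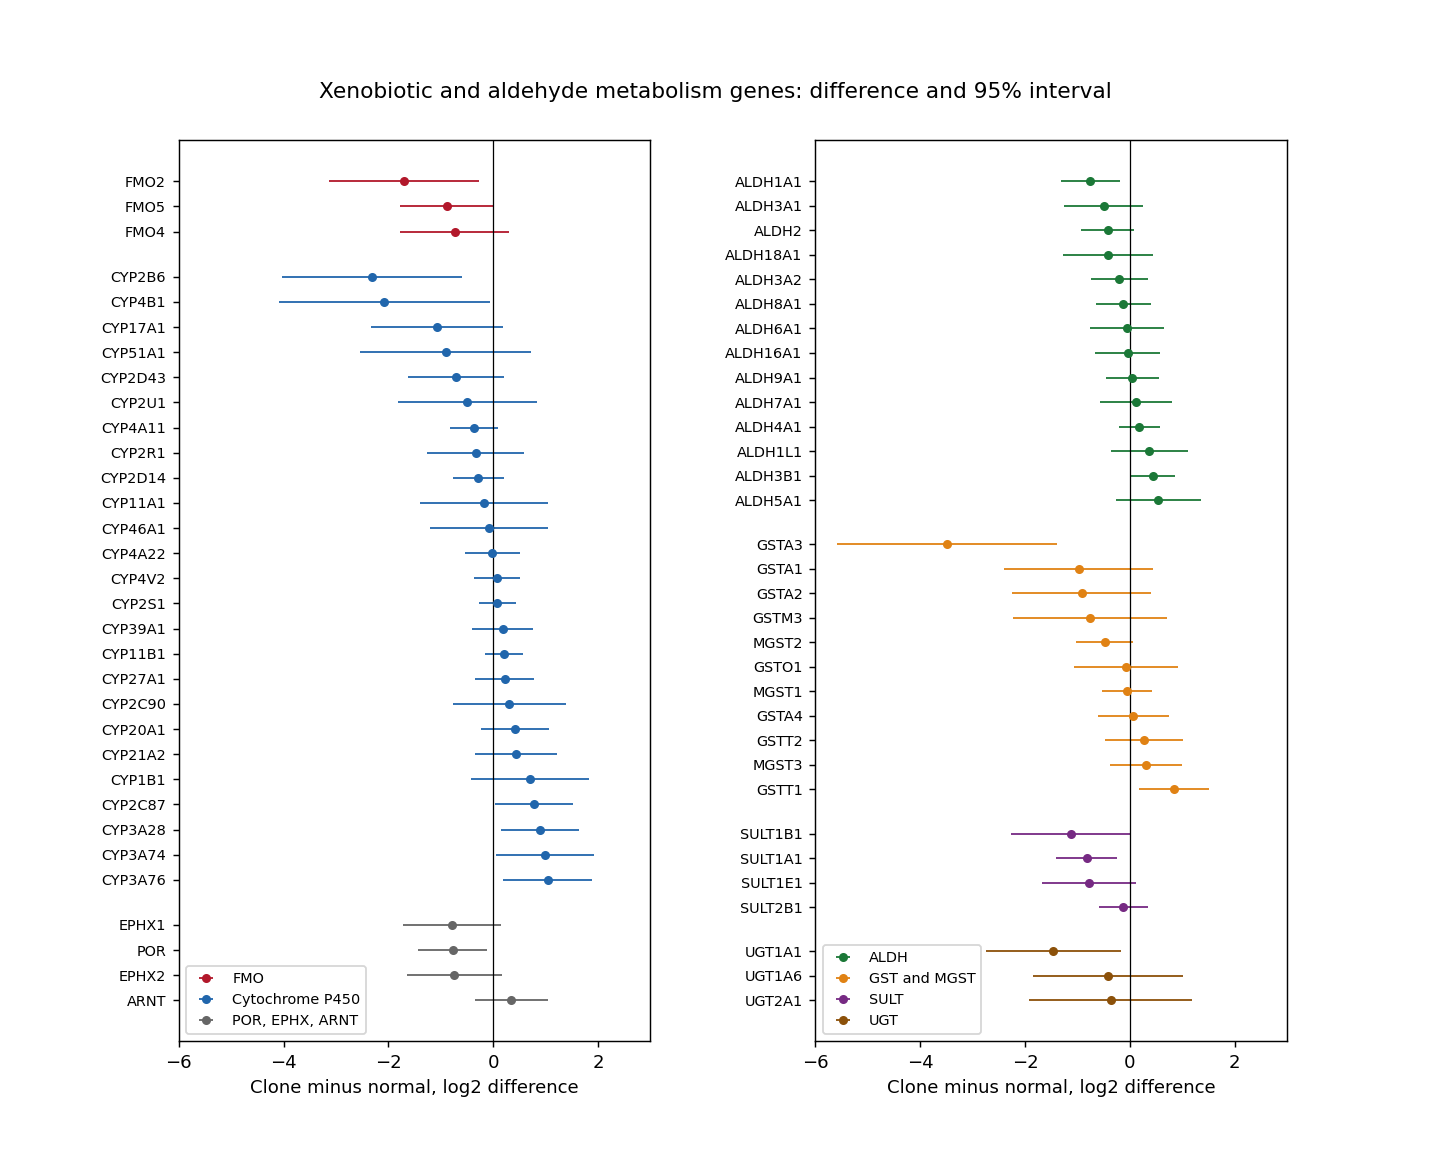
Difference between clones and normal animals (log2, x axis) for 64 of the genes, grouped by family; points are estimates and bars are 95% intervals from limma, n = 4 animals a group. GSTA3 lies furthest left at -3.49, FMO2, FMO4 and FMO5 lie left of 0, and the CYP3A genes lie furthest right, at 0.90 to 1.04 (CYP3A28 was negative with normexp and 75th percentile centring).

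FMO2, FMO4 and FMO5 had a negative difference between clones and normal animals, and none of them passed the test. FMO2, the main FMO of lung in many mammals, measured -3.37, -1.11, -2.55 and -1.09 in clones 1 to 4, against -1.24, -0.31, -0.72 and 0.94 in normal animals 1 to 4. Clones 2 and 4 lay within the range of the normal animals and clones 1 and 3 below it, and the difference was -1.70 (SE 0.63, limma adjusted p = 0.296), with -1.64 to -1.62 on its other probes.

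FMO5, which oxidises ketones and aldehydes rather than typical FMO substrates, measured -0.73, -0.15, -1.95 and -0.20 in clones 1 to 4, against 0.20, -0.044, -0.076 and 0.43 in normal animals 1 to 4. Its groups did not overlap, while clones 2 and 4 came within 0.2 of the lowest normal animal and clone 3 lay furthest below. The difference was -0.89 (SE 0.39, limma adjusted p = 0.382). FMO4 measured -4.34, -3.68, -5.79 and -3.67 in clones 1 to 4, against -3.54, -4.00, -3.67 and -3.35 in normal animals 1 to 4, with clone 3 alone more than 1 below the normal range, and differed by -0.73 (SE 0.45, limma adjusted p = 0.545). In the gene order of the RefSeq assembly ARS-UCD2.0, FMO2 and FMO4 lie in 1 cluster with 1 other gene between them, and FMO5 lies on another chromosome. Without clone 3 the differences of FMO4 and FMO5 were -0.26 and -0.49. The negative sign of these 3 genes held in each of the 19 other settings or subsets of animals tried.

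**Figure D2:**
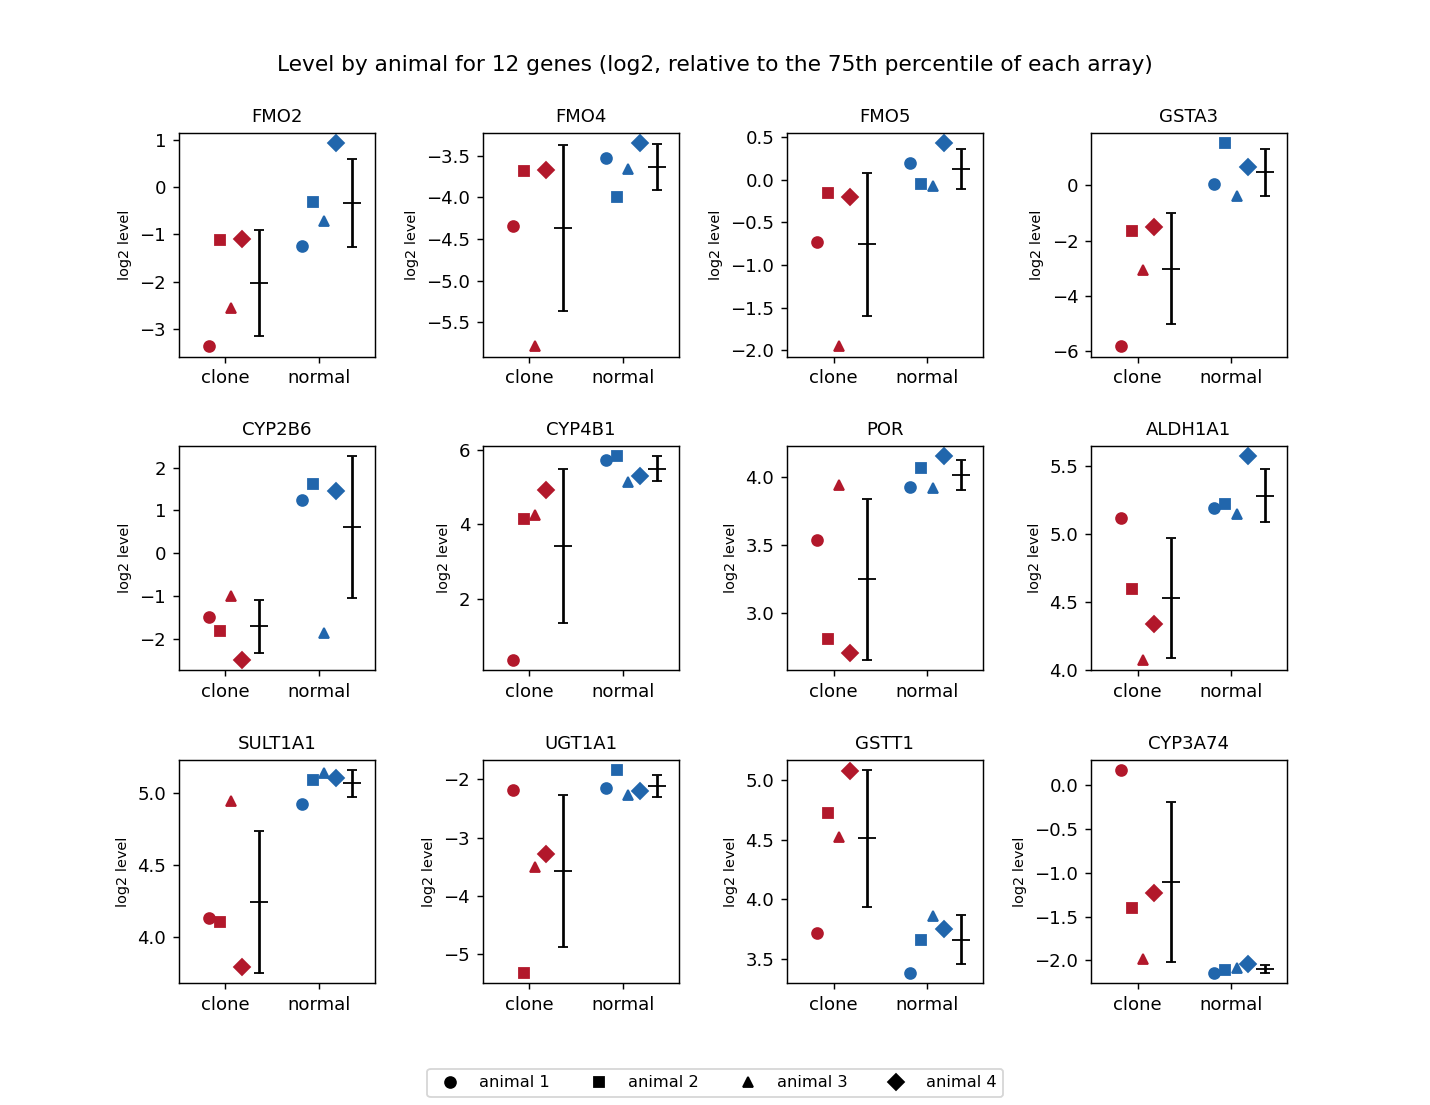
Level (log2 relative to the 75th percentile of each array, y axis, its range differing between panels) in 4 clones and 4 normal animals for 12 genes; symbols mark the animal and black bars the mean ± SD. Clone 1 stands apart in CYP4B1 and CYP3A74, and normal animal 3 lies among the clones for CYP2B6.

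Among the 25 P450 genes the differences went both ways, 12 negative and 13 positive, with a median of 0.078. After centring on the median of kept probes these were 11 and 14, and after normexp background correction with 75th percentile centring 17 and 8, where the median of all probes itself moved to -0.32. CYP2B6, in humans a phenobarbital-inducible drug-metabolising P450, measured -1.50, -1.83, -1.01 and -2.50 in clones 1 to 4, against 1.24, 1.62, -1.87 and 1.45 in normal animals 1 to 4. Normal animals 1, 2 and 4 lay more than 2 above every clone, while normal animal 3 lay among the clones. The difference was -2.32 (SE 0.75, limma adjusted p = 0.245), and its other probes gave -2.77 to -2.52. Without normal animal 3 the difference was -3.15 (limma adjusted p = 0.0361), where 0.087% of all probes passed. That subset leaves out the 1 normal animal that lay among the clones, so nothing is read from its call.

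CYP4B1, a lung P450 that hydroxylates fatty acids and activates plant furans toxic to cattle lung, measured 0.37, 4.16, 4.24 and 4.92 in clones 1 to 4, against 5.73, 5.83, 5.14 and 5.29 in normal animals 1 to 4. All clones lay below all normal animals, with clone 1 more than 3 below the other 3 clones. The difference was -2.07 (SE 0.88, limma adjusted p = 0.366), and without clone 1 it was -1.06 (adjusted p = 0.0559). CYP4A22, its neighbour in gene order, differed by -0.014, and CYP2S1, the neighbour of CYP2B6, by 0.081.

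The reductase POR, which feeds electrons to all microsomal P450s, measured 3.53, 2.81, 3.94 and 2.70 in clones 1 to 4, against 3.93, 4.06, 3.92 and 4.15 in normal animals 1 to 4. Clones 2 and 4 were lower than every other animal, clone 1 lay just below the normal animals and clone 3 within their range. The difference was -0.77 (SE 0.29, limma adjusted p = 0.305), a mean 1.70-fold lower in clones, with -1.02 to -0.77 on its other probes. POR had the smallest p of 9 measured genes of P450 electron transfer, of which 6 had a positive and 3 a negative difference (median 0.15) and none passed. The cytochrome b5 reductase CYB5R1 differed by 0.20 (adjusted p = 0.722).

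The 3 CYP3A genes, neighbours in gene order and members of the subfamily that oxidises many drugs and steroids, had positive differences that did not pass the test, and the sign of CYP3A28 depended on the background correction. CYP3A74 measured 0.18, -1.40, -1.98 and -1.23 in clones 1 to 4, against -2.15, -2.11, -2.09 and -2.05 in normal animals 1 to 4. The normal animals lay within 0.1 of each other and all 4 clones above them, clone 3 by little and clone 1 by over 2. CYP3A76 measured -0.76, -2.12, -2.70 and -1.94 in clones 1 to 4, against -2.86, -3.01, -2.78 and -3.03 in normal animals 1 to 4, in the same order of clones. The differences were 0.99 (SE 0.41, limma adjusted p = 0.348) and 1.04 (SE 0.37, limma adjusted p = 0.284). Without clone 1 they were 0.56 and 0.67. CYP3A28 measured -5.80, -5.29, -4.87 and -4.61 in clones 1 to 4, against -6.45, -6.38, -5.41 and -5.94 in normal animals 1 to 4, where clone 4 was highest and clone 1 lowest of the clones, and differed by 0.90 (SE 0.33, limma adjusted p = 0.289). Its sign turned, to -0.66, with normexp background correction and 75th percentile centring. These genes are close copies, and how far each probe reads its neighbours' transcripts was not tested.

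CYP2C87, of the P450 subfamily that handles fatty acids and drugs, measured -3.54, -2.57, -3.05 and -2.19 in clones 1 to 4, against -3.66, -3.37, -4.13 and -3.29 in normal animals 1 to 4. Clones 2, 3 and 4 lay above every normal animal and clone 1 within their range, with a difference of 0.78 (SE 0.32, limma adjusted p = 0.356), which was -0.084 with normexp and 75th percentile centring. CYP1B1, a target of the aryl hydrocarbon receptor that oxidises polycyclic hydrocarbons and oestrogens, measured -2.96, -5.02, -5.36 and -4.93 in clones 1 to 4, against -5.24, -5.75, -4.94 and -5.14 in normal animals 1 to 4. Clone 1 stood about 2 above the other clones, which lay within the normal range or, for clone 4, at its upper end. Its difference was 0.70 (SE 0.50, limma adjusted p = 0.601), 0.17 without clone 1, and -0.48 with normexp and 75th percentile centring.

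Among P450s of sterol and steroid metabolism, CYP51A1 and CYP17A1 had the lowest differences. CYP51A1, the lanosterol demethylase of cholesterol synthesis, measured 1.92, -1.46, -1.62 and -0.51 in clones 1 to 4, against 0.55, -0.11, 0.75 and 0.77 in normal animals 1 to 4. Clone 1 was the highest of all animals and the other 3 clones lay below every normal animal. The pooled difference was -0.91 (SE 0.72, limma adjusted p = 0.647), and -1.68 without clone 1 (adjusted p = 0.0339). In that subset 7.19% of all probes passed, and sex and group cannot be told apart. It leaves out the clone that lay above the normal animals, so nothing is read from its call. CYP17A1, the 17-hydroxylase and lyase of steroid synthesis, ranged from -0.014 to 2.10 in clones, against 0.81 to 2.71 in normal animals, with a difference of -1.07 (adjusted p = 0.458). CYP11A1, CYP11B1 and CYP21A2, which act before or after it, differed by -0.18, 0.21 and 0.44. Without clone 1 CYP11A1 differed by 0.27, and CYP21A2 by -0.67 with normexp and 75th percentile centring. CYP27A1 and CYP46A1, which hydroxylate cholesterol, differed by 0.22 and -0.079, and the vitamin D hydroxylase CYP2R1 by -0.33. The other CYP46A1 probe above the limit gave 0.61. The other 8 P450 genes had differences between -0.70 (CYP2D43) and 0.41 (CYP20A1), with adjusted p between 0.489 and 0.906.

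The epoxide hydrolases were lowest in clone 1. EPHX1, the microsomal hydrolase that acts on epoxides made by P450s, measured 0.67, 2.34, 2.70 and 2.42 in clones 1 to 4, against 2.75, 2.77, 2.81 and 2.91 in normal animals 1 to 4. The normal animals lay within 0.2 of each other, clones 2 to 4 just below them and clone 1 about 2 below. The difference was -0.78 (SE 0.41, limma adjusted p = 0.468), and -0.33 without clone 1. EPHX2, the soluble hydrolase of epoxides of arachidonic acid, measured -1.83, -0.54, -0.27 and -0.49 in clones 1 to 4, against -0.080, 0.71, -0.59 and -0.22 in normal animals 1 to 4. Clones 2 to 4 lay within the normal range, and the difference was -0.74 (SE 0.40, limma adjusted p = 0.483), or -0.39 without clone 1. ARNT, the dimer partner of the aryl hydrocarbon receptor and of hypoxia-inducible factors, measured -4.44, -3.86, -2.97 and -4.24 in clones 1 to 4, against -4.31, -4.08, -4.25 and -4.26 in normal animals 1 to 4. Clone 3 was the highest animal and clone 2 the next, while the other clones lay near the normal animals, and the difference was 0.35 (SE 0.31, limma adjusted p = 0.689), which turned to -0.49 with normexp and 75th percentile centring.

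The 14 aldehyde dehydrogenases spanned a narrower range of differences than the P450 and GST families, from -0.76 to 0.55, with a median of -0.046, 8 negative and 6 positive. With array weights 6 were negative, without clone 1 it was 5, and with normexp and 75th percentile centring 10. ALDH1A1, which makes retinoic acid from retinaldehyde, measured 5.12, 4.59, 4.07 and 4.34 in clones 1 to 4, against 5.20, 5.22, 5.15 and 5.57 in normal animals 1 to 4. All clones lay below all normal animals, clone 1 by less than 0.1, and the difference was -0.76 (SE 0.25, limma adjusted p = 0.248), a mean 1.69-fold lower in clones. Its other probes gave -1.08 to -0.86. Without clone 1 the difference was -0.95 (limma adjusted p = 0.0323), in a subset where 7.19% of all probes passed. Sex and group cannot be told apart in it.

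ALDH2, the mitochondrial enzyme that clears acetaldehyde, measured 5.24, 5.66, 6.20 and 5.81 in clones 1 to 4, against 6.03, 6.27, 6.06 and 6.21 in normal animals 1 to 4. Clones 1, 2 and 4 lay below every normal animal and clone 3 within their range, with a difference of -0.42 (SE 0.22, limma adjusted p = 0.474). The other ALDH2 probes gave -0.84 to -0.53. ALDH3A1, which protects epithelia from aldehydes of lipid peroxidation, ranged from -4.72 to -3.40 in clones, against -4.10 to -3.19 in normal animals, with a difference of -0.50 (SE 0.33, limma adjusted p = 0.575). ALDH3B1, which oxidises medium- and long-chain aldehydes, measured -0.57, -0.17, -0.28 and 0.080 in clones 1 to 4, against -0.61, -0.78, -0.68 and -0.61 in normal animals 1 to 4. Its clones lay above all normal animals, clone 1 by under 0.1, and the difference was 0.44 (SE 0.18, limma adjusted p = 0.360). ALDH5A1, the succinic semialdehyde dehydrogenase of GABA breakdown, had the highest difference of the family at 0.55 (SE 0.36, limma adjusted p = 0.571), with overlapping groups and -0.56 under normexp and 75th percentile centring.

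The other 9 ALDH genes, most of them enzymes of amino acid, fatty acid and folate metabolism, had differences between -0.42 and 0.38. ALDH4A1 of proline breakdown differed by 0.18, ALDH6A1 of valine breakdown by -0.049, ALDH7A1 of lysine breakdown by 0.12 and ALDH18A1, which makes the proline precursor, by -0.42. ALDH9A1 of carnitine synthesis differed by 0.051, the folate enzyme ALDH1L1 by 0.38 and the fatty aldehyde dehydrogenase ALDH3A2 by -0.20. ALDH1L1 differed by -0.62 with normexp and 75th percentile centring and by 0.077 without normal animal 1. ALDH8A1 and ALDH16A1 differed by -0.13 and -0.043, and the other probes of ALDH16A1 gave -0.52 to -0.10. The 95% interval of the difference lay within a 2-fold change in either direction for ALDH4A1 (-0.20 to 0.57), ALDH9A1 (-0.46 to 0.56), ALDH3A2 (-0.75 to 0.34), ALDH6A1 (-0.75 to 0.66) and ALDH7A1 (-0.57 to 0.80). It reached further for ALDH18A1 (-1.27 to 0.44) and ALDH1L1 (-0.35 to 1.10).

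Among 11 glutathione transferases, 7 differences were negative and 4 positive, with a median of -0.079. With normexp and 75th percentile centring 5 were negative. GSTA3, an alpha-class enzyme that in several mammals isomerises steroid hormone precursors, measured -5.83, -1.64, -3.06 and -1.52 in clones 1 to 4, against 0.060, 1.55, -0.40 and 0.69 in normal animals 1 to 4. All clones lay below all normal animals, and clone 1 lay lowest by more than 2. The mean was -3.01 ± 2.00 in clones and 0.48 ± 0.84 in normal animals (log2, SD, n = 4 each), 11.2-fold lower in clones, with a difference of -3.49 (SE 0.92, limma adjusted p = 0.184) and a 95% interval of -5.58 to -1.39. The second GSTA3 probe gave -3.28. Without clone 1 the difference was -2.55 (limma adjusted p = 0.0401), in a subset where 7.19% of all probes passed. Sex and group cannot be told apart in it.

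GSTA1, GSTA2 and GSTA4 lie in the same row of neighbouring genes as GSTA3. GSTA1, which conjugates electrophiles and reduces lipid peroxides, measured 0.57, 3.12, 3.83 and 3.01 in clones 1 to 4, against 3.72, 3.86, 3.20 and 3.65 in normal animals 1 to 4. GSTA2 measured 2.27, 4.15, 5.47 and 4.36 in clones 1 to 4, against 5.18, 4.85, 4.74 and 5.16 in normal animals 1 to 4. In both genes clone 1 lay more than 1 below every other animal, and clone 3 was among the highest. Their differences were -0.98 and -0.92 (adjusted p = 0.557 and 0.553), and -0.29 and -0.32 without clone 1. GSTA4, which conjugates the lipid aldehyde hydroxynonenal, differed by 0.066, with -0.16 on its other probe. GSTM3 of the mu class ranged from 0.064 to 3.34 in clones, against 2.61 to 3.26 in normal animals, where only clone 1 left the normal range by more than 0.1, and differed by -0.76, or -0.033 without clone 1. How far the alpha-class probes read each other's transcripts was not tested.

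GSTT1, a theta-class enzyme that conjugates small halogenated compounds, was the transferase with the highest difference. It measured 3.72, 4.72, 4.52 and 5.08 in clones 1 to 4, against 3.38, 3.66, 3.86 and 3.75 in normal animals 1 to 4. Clones 2, 3 and 4 lay above every normal animal and clone 1 within their range, and the difference was 0.85 (SE 0.29, limma adjusted p = 0.265), with 1.80-fold higher means in clones and the same sign on all 4 of its probes. Without clone 1 it was 1.11 (limma adjusted p = 0.0255), where 7.19% of all probes passed and sex and group cannot be told apart. That subset leaves out the clone within the normal range, so nothing is read from its call. GSTT2, its neighbour in gene order, measured 2.82, 3.72, 4.29 and 4.32 in clones 1 to 4, against 3.58, 3.62, 3.42 and 3.42 in normal animals 1 to 4, with the highest values in clones 2 to 4 and the lowest in clone 1, and differed by 0.28.

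Of the membrane-bound transferases, MGST2, which can make leukotriene C4, measured 0.97, 1.05, 0.083 and 0.91 in clones 1 to 4, against 1.11, 1.27, 1.22 and 1.32 in normal animals 1 to 4. The clones lay below all normal animals, clone 3 furthest, and the difference was -0.47 (SE 0.24, limma adjusted p = 0.447), or -0.25 without clone 3. MGST1, an abundant peroxidase and transferase of the endoplasmic reticulum, differed by -0.051 (SE 0.21, limma adjusted p = 0.947), with a 95% interval of -0.53 to 0.43, and MGST3 by 0.31. GSTO1, the omega-class enzyme that reduces dehydroascorbate, differed by -0.079.

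All 4 measured sulfotransferases had negative differences, a sign that held in the 19 other settings or subsets, with a median of -0.80. SULT1A1, which sulfates phenols and catecholamines, measured 4.13, 4.10, 4.94 and 3.79 in clones 1 to 4, against 4.92, 5.09, 5.14 and 5.10 in normal animals 1 to 4. Clones 1, 2 and 4 lay below the normal animals by about 0.8 or more, and clone 3 lay within their range. The difference was -0.83 (SE 0.25, limma adjusted p = 0.228), a mean 1.77-fold lower in clones, with -0.94 to -0.88 on its other probes. Without clone 3 it was -1.06 (limma adjusted p = 0.0309), where 1.27% of all probes passed. That subset leaves out the clone within the normal range, so nothing is read from its call.

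SULT1B1, which sulfates thyroid hormones and small phenols, measured -2.21, -4.01, -4.59 and -4.30 in clones 1 to 4, against -2.74, -3.17, -2.53 and -2.18 in normal animals 1 to 4. Clone 1 lay at the upper end of the normal range and the other clones below every normal animal. The difference was -1.12 (SE 0.50, limma adjusted p = 0.388), and -1.65 without clone 1 (adjusted p = 0.0212). In that subset 7.19% of all probes passed, and sex and group cannot be told apart. It leaves out the clone within the normal range, so nothing is read from its call. SULT1E1, the oestrogen sulfotransferase and a close neighbour of SULT1B1, measured -6.20, -5.42, -4.20 and -4.85 in clones 1 to 4, against -4.20, -4.22, -4.65 and -4.51 in normal animals 1 to 4, with clone 1 lowest and clone 3 among the highest, and differed by -0.77 (adjusted p = 0.452). SULT2B1, which sulfates cholesterol, differed by -0.13 (SE 0.20, limma adjusted p = 0.843). PAPSS2, one of the enzymes that make the sulfate donor, ranged from -2.70 to -2.09 in clones, against -2.15 to -1.68 in normal animals and differed by -0.59 (adjusted p = 0.256).

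The 3 measured glucuronosyltransferases had negative differences, but 2 were positive with array weights, and 1 with normexp and quantile normalization, without clone 3 and without clone 4. UGT1A1, the enzyme that conjugates bilirubin, measured -2.18, -5.32, -3.50 and -3.27 in clones 1 to 4, against -2.14, -1.84, -2.27 and -2.19 in normal animals 1 to 4. Clone 1 lay within the normal range and clones 2, 3 and 4 more than 1 below the mean of the normal animals. The difference was -1.46 (SE 0.57, limma adjusted p = 0.323), or -0.87 without clone 2. UGT2A1, known for odorant clearance in nose and airway, measured -3.03, -2.04, -5.15 and -1.54 in clones 1 to 4, against -2.60, -2.48, -2.57 and -2.65 in normal animals 1 to 4, with clone 3 lowest and clone 4 highest of all animals, and differed by -0.36 (SE 0.68, limma adjusted p = 0.868). Its difference was 0.37 without clone 3. UGT1A6, which conjugates simple phenols, was detected on its brightest probe in 1 of 4 clones and in 3 of 4 normal animals. It differed by -0.41, with a 95% interval of -1.85 to 1.02, and its other probe gave -1.58.

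The clones differed from each other more than the normal animals did, and different genes set them apart. The median SD over the 65 genes was 0.59 in clones and 0.29 in normal animals, beside 0.53 and 0.17 over all probes. The clones were the more variable group in 52 genes (80%, beside 90% of all probes). Counting genes at least 1 (2-fold) outside the range of the 4 normal animals, clone 1 had 11 below and 4 above, clone 2 had 4 and 0, clone 3 had 14 and 1, and clone 4 had 7 and 2. These are 16.9%, 6.15%, 21.5% and 10.8% below, beside 7.31%, 3.05%, 10.2% and 3.83% of all probes in the same clones. Above the range they are 6.15%, 0%, 1.54% and 3.08%, beside 4.49%, 2.72%, 7.62% and 3.62% of all probes. Each normal animal had at most 2 genes so far outside the range of the other 3. In normal animals 1 to 4 these are 3.08%, 0%, 1.54% and 0% below, beside 0.912%, 0.385%, 0.544% and 0.328% of all probes. Above the range they are 0%, 1.54%, 0% and 1.54%, beside 0.357%, 0.71%, 0.485% and 0.295%.

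**Figure D3:**
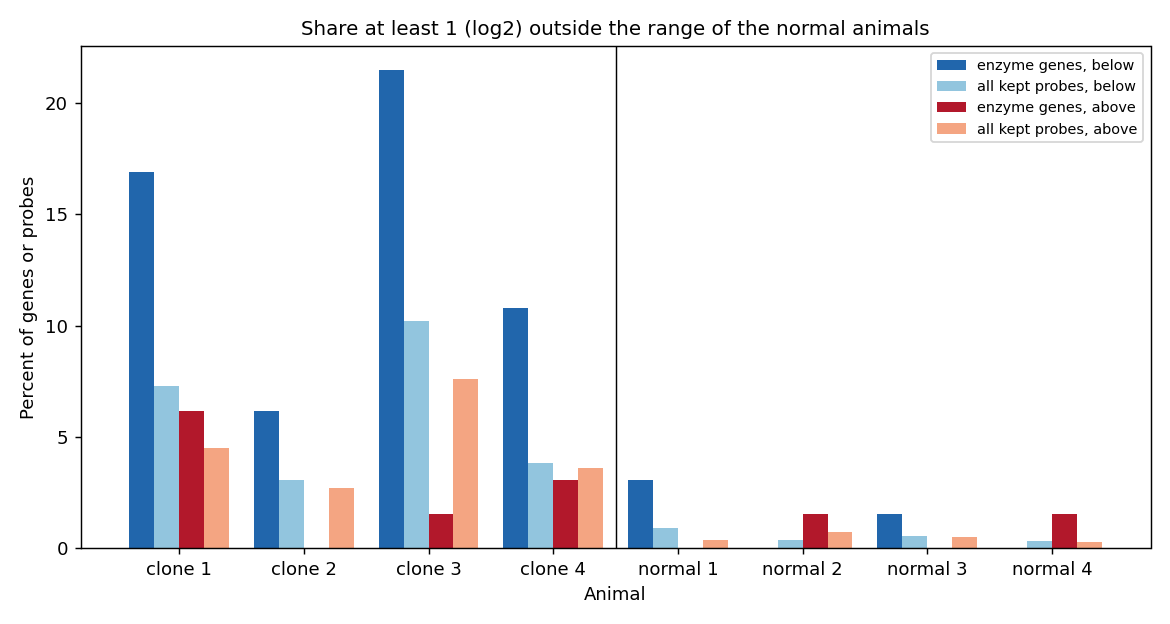
Percent of the 65 enzyme genes and of all kept probes (y axis) lying at least 1 on the log2 scale below or above the range of the normal animals, in each animal; clones are set against 4 normal animals and each normal animal against the other 3. In all 4 clones the share of enzyme genes below the range exceeds that of all probes, as it also does in normal animals 1 and 3.

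Clone 1 was the low animal for CYP4B1, EPHX1, EPHX2, FMO2, GSTA1, GSTA2, GSTA3, GSTM3, SULT1E1, CYP11A1 and CYP2D43, and the high one for CYP1B1, CYP3A74, CYP3A76 and CYP51A1. The mean level of 9 endothelial markers was 1.08 in clone 1, against 2.21 to 2.57 in the other clones and 2.39 to 2.65 in normal animals. That of 9 alveolar type I cell markers was 0.87 in clone 1, against 1.16 to 1.51 in the other clones and 1.16 to 1.56 in normal animals. Clone 1 was the highest animal for the mean level of 8 erythroid markers, at 0.79, against -1.66 to -0.79 in the other clones and -1.89 to -0.52 in normal animals. It was also the highest for the type II cell markers, at 3.78. The part of these cells in the values of clone 1 was not tested. Clone 3 was low by the same count for FMO2, FMO4, FMO5, ALDH1A1, ALDH18A1, CYP2R1, CYP2U1, CYP51A1, GSTA3, MGST2, SULT1B1, UGT1A1 and UGT2A1. Clone 2 was low for POR, UGT1A1, CYP51A1 and GSTA3, and clone 4 for POR, SULT1A1, SULT1B1, UGT1A1, UGT1A6 and GSTA3, among others. GSTA3 was the one gene of the 65 so far below the normal range in all 4 clones.

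**Figure D4:**
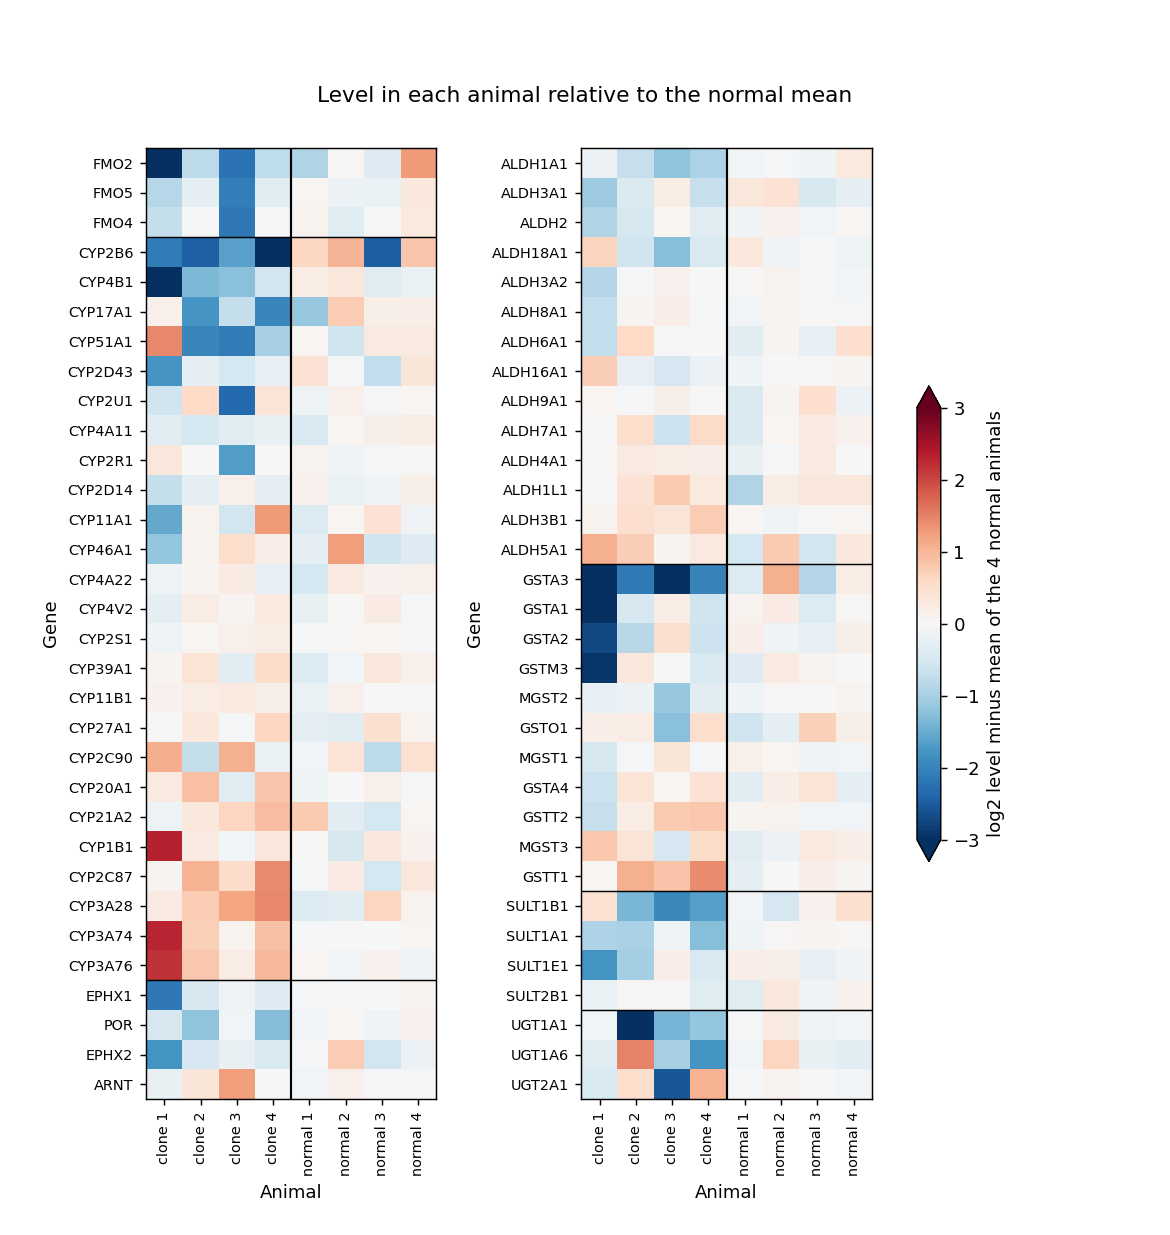
Heat map of the level of 64 of the genes (rows, by family, lines between families) in each animal (columns, clones left of the black line) minus the mean of the 4 normal animals, log2, with the colour scale ending at -3 and 3. The low values of GSTA1, GSTA2, GSTM3 and CYP4B1 in clone 1 stand apart from the other clones, while GSTA3 is below the normal mean in all 4 clones.

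Markers of airway cells, the best-known site of several of these enzymes, were measured in the same animals. All 11 measured markers of ciliated cells had a negative difference (median -0.86, 7 with an unadjusted p under 0.05, none past the threshold). Over all probes 52.1% of differences were negative. An unadjusted p under 0.05 was found for 13.2% of all probes, 7.1% with lower values in clones. These shares also belong beside the counts of each list below. The mean level of the ciliated markers was -3.03 to -2.08 in clones, against -2.26 to -1.25 in normal animals. In this list normal animal 3 was the lowest normal animal, as it was for CYP2B6. It was also the lowest normal animal for the mean level of secretory, neutrophil, macrophage, endothelial and hepatocyte markers. For fibroblast and erythroid markers it was the highest normal animal. The ciliary genes RSPH9, DNAH9 and TEKT2 had the smallest p, with differences of -1.24, -1.66 and -0.79.

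Of the 7 measured markers of secretory cells, 4 had a negative and 3 a positive difference, and their mean level was -1.16 to 1.68 in clones, with clone 1 the highest, against -0.12 to 1.21 in normal animals. SCGB1A1, the defining secretory protein of club cells, measured 0.93, 1.29, 2.37 and 0.34 in clones 1 to 4, against 2.18, 3.48, 2.58 and 3.91 in normal animals 1 to 4. Clones 1, 2 and 4 lay below every normal animal, and the difference was -1.81 (SE 0.51, limma adjusted p = 0.202). BPIFB1 differed by -2.26 and lactoferrin, LTF, also made by neutrophils, by 1.57. Among the secretory markers AGR2 did not pass the limit on background. The part of airway cells in the FMO, CYP2B6, CYP4B1 and SULT values was not tested.

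Alveolar, endothelial and macrophage markers also passed no test. Type I cell markers had 5 negative and 4 positive differences, and endothelial markers 6 and 3, with a median of -0.10 in each list. HOPX of alveolar type I cells differed by -1.18 and CA4 of alveolar capillaries by -2.60 (adjusted p = 0.119 and 0.136), while the type I markers PDPN and AGER differed by 0.98 and 0.061. All 6 measured macrophage markers had negative differences, with a mean level of 1.56 to 3.13 in clones and 3.09 to 3.59 in normal animals. Hepatocyte markers, listed because liver is the main organ of these enzymes, had a median difference of -0.038 over 10 genes, 5 in each direction. Their differences spread widely, from -2.68 to 0.76, with 3 at least 2-fold lower in clones, beside 4.33% of all probes. Of the remaining lists, neutrophil markers had 6 negative and 3 positive differences, fibroblast markers 2 and 6, smooth muscle markers 6 and 1, and erythroid markers 0 and 8, with none past the threshold.

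Of the measured genes in the other lists of the pathway, none had an adjusted p under 0.05 apart from the bile acid receptor NR1H4, whose probe had to differ, as set out below. Among 6 measured xenobiotic-sensing receptors, 5 had a negative difference and 1 a positive one, where 52.1% of all probes had a negative one. On its brightest probe NR1H4 measured -6.61, -7.19, -7.50 and -6.68 in clones 1 to 4, against -4.82, -4.84, -4.43 and -4.13 in normal animals 1 to 4. On that probe no clone and all normal animals were well above background. That probe met the limit on background through the normal arrays alone and so had to differ, and nothing is read from its call. Another NR1H4 probe was well above background on 5 of 8 arrays, so in a clone as well, and its difference is not given here. On the brightest probe a bound that sets the normal mean against the detection limit of the clone arrays was 3.62-fold. It rests on the same detection pattern and is given as a description only. The limma adjusted p of its measured values, 0.0152, comes from that same probe and is not read as a result. RXRB, the dimer partner of several such receptors, and HNF4A, a regulator of liver-type genes, differed by -0.26 and -0.48 (adjusted p = 0.588 and 0.617).

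Of 22 other enzymes of the first phase, 16 had a negative and 6 a positive difference, where 52.1% of all probes had a negative one, and none passed. The paraoxonase PON1, which hydrolyses lactones and organophosphates, measured -8.34, -7.46, -6.12 and -6.43 in clones 1 to 4, against -4.03, -2.68, -4.00 and -1.91 in normal animals 1 to 4, with all normal animals but only 1 of 4 clones well above background. The difference was -3.93 (SE 0.62, limma adjusted p = 0.0645), and its size is limited by background in the other 3 clones. The amine oxidase MAOB measured -3.31, -4.22, -4.24 and -3.45 in clones 1 to 4, against -2.23, -2.91, -2.89 and -2.36 in normal animals 1 to 4 and the xanthine oxidoreductase XDH 4.30, 4.03, 4.66 and 3.56 in clones 1 to 4, against 4.98, 5.31, 4.67 and 5.08 in normal animals 1 to 4. In both genes all clones lay below all normal animals, and the differences were -1.21 (SE 0.29, limma adjusted p = 0.163) and -0.87 (SE 0.26, limma adjusted p = 0.225).

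Of 16 other genes of conjugation and its cofactors, 9 had a negative and 7 a positive difference. GCLM, the regulatory subunit of glutathione synthesis, differed by -0.65 (SE 0.27, limma adjusted p = 0.352) and the arylamine acetyltransferase NAT1 by -1.01 (SE 0.44, limma adjusted p = 0.378). Among 7 measured genes of the aryl hydrocarbon receptor pathway, 4 were positive and 3 negative. The receptor AHR itself, CYP1A1, CYP1A2, TIPARP and ARNT2 had no probe with their symbol, and AHRR did not pass the limit on background. NFE2L2, the transcription factor NRF2 that controls many GST genes, measured 1.35, 1.18, 1.49 and 0.79 in clones 1 to 4, against 1.59, 1.68, 1.74 and 1.70 in normal animals 1 to 4. All clones lay below all normal animals, with a difference of -0.47 (SE 0.19, limma adjusted p = 0.338). NQO1, a target of both factors, differed by -0.76 (adjusted p = 0.686).

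Of 10 drug transporters, 7 had a negative and 3 a positive difference, where 52.1% of all probes had a negative one, with adjusted p of 0.58 or more. SLCO4A1 differed by -1.44, the efflux pump ABCC1 by -0.31 and ABCG2, another efflux pump, by 0.77. Of 15 genes of the retinoid pathway, 8 had a negative and 7 a positive difference, with ALDH1A1 as the gene with the smallest p. The carotenoid-cleaving enzyme BCO2 differed by 0.36 (adjusted p = 0.461).

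Several genes were read by more than 1 probe. Of the 65 genes, 40 had more than 1 probe above the limit, and in 35 of them all such probes had 1 sign. All 11 genes at an unadjusted p under 0.05 with more than 1 such probe were among these 35. None of the 128 probes of the 65 genes passed the test. The 5 genes whose probes disagreed in sign were CYP2S1, CYP4A11, CYP4V2, CYP46A1 and GSTA4.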

How the data were processed

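Per the file headers and the submitters' processing notes, the deposited scanner files were written by Agilent Feature Extraction 10.7 from 1-colour (Cy3) arrays. The processed intensity of each spot was deposited background-subtracted and not normalized between arrays. The authors' deposited value table holds log2 values per probe, which correlated with log2 processed signal at r of 0.999 or more, with column medians of 7.89; how the columns were made alike is unstated. It served as an alternative.

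Control and outlier spots (2 to 21 of 43803 per array) were left out and none was saturated. Spots well above background made up 78.8% to 83.5% of an array. From log2 intensity the 75th percentile of the array was subtracted, and spots of 1 probe were averaged. Probe accessions were matched without version to RefSeq genes of ARS-UCD2.0: 23492 of 43653 probes obtained 1 symbol, 20161 none and 0 several. The array was designed on an older bovine build, so no coordinates are given.

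Probes well above background on 4 of 8 arrays (35636) were tested with limma 3.58.1 in R 4.3.3 (lmFit, eBayes, group as sole term, 2-sided), and the script was tested on simulated data. The p-values measure the spread between 4 calves a group, and the number of arrays limits the precision. The members, gene lists and named genes were chosen with earlier results of these data known. Named genes were members with an unadjusted p under 0.05, the highest and lowest of each family, members with groups that do not overlap, a fixed set of 22 well-known enzymes where measured, and up to 3 genes of each other list by p; further members, AGER and AGR2 were named after their values were seen. Of the genes this rule names, 2 are not reported here singly, but enter the counts. Alternatives were other normalizations, normexp background correction (offset 50, on the median spot signal, since the files hold no mean signal), other filters, the authors' table, trend and robust settings, array weights, a replicate block, the mean of a gene's probes and leaving out each animal. Same-numbered clones and normal animals deviated from their group means with correlations of -0.20 to 0.099, beside -0.18 to 0.17 for animals of different number. These values give no sign that the numbers pair the animals, and they cannot exclude it.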

Additional observations from a re-analysis of the deposited data

Results flagged for a closer look

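In 4 of 60 groups of 4 animals, over 30 named genes, 1 animal was far from the other 3 by Dixon's test of the gap to the nearest animal over the range of the group. Chance flags about 1 in 20 groups. CYP4B1 in clone 1 measured 0.37, with the nearest clone at 4.16. MGST2 in clone 3 measured 0.083, with the nearest clone at 0.91. CYP2B6 in normal animal 3 measured -1.87, with the nearest normal animal at 1.24. The mean level of ciliated cell markers in that animal, -2.26, was also the lowest of the normal animals. The same held for its secretory, neutrophil, macrophage, endothelial and hepatocyte markers, and the part of these cells was not tested. ALDH1A1 in normal animal 4 measured 5.57, with the nearest normal animal at 5.22.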

How the results depend on the processing

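The count of 0 genes past the threshold held in 10 of 11 alternatives that kept all animals. With array weights, which gave clones 1 and 3 weights of 0.12 and 0.099, 21 of the 65 genes passed and their median difference was -0.040, where 31.3% of all probes passed. Leaving out 1 animal gave 0 to 6 genes past the threshold, 10 to 21 genes without overlap (21 without clone 1, beside 27.4% of all probes, and 19 without clone 3, beside 20.2%) and medians of -0.27 to -0.10. The 6 genes, found without clone 1, included ALDH1A1, CYP51A1, GSTA3, GSTT1 and SULT1B1, in a subset where sex and group cannot be told apart. SULT1A1 passed without clone 3, and CYP2B6 without normal animal 3. With normexp and 75th percentile centring the median was -0.49 over the 65 genes and -0.32 over all probes, and 5 genes did not overlap, beside 5.90% of all probes. With that setting 12 of the 65 differences changed sign, and 16 did relative to the median of all probes. The 12 were ALDH5A1 (-0.56), ARNT (-0.49), CYP1B1 (-0.48), CYP2C87 (-0.084), CYP3A28 (-0.66), MGST1 (0.10), ALDH1L1 (-0.62), ALDH7A1 (-0.34), ALDH16A1 (0.078), CYP21A2 (-0.67), CYP39A1 (-0.29) and GSTO1 (0.045). MGST1 was also positive without clone 1 (0.093) and without normal animal 1 (0.00019), and UGT2A1 with array weights (0.65) and without clone 3 (0.37). Leaving out 1 animal, MGST1 ranged from -0.19 to 0.093 and UGT2A1 from -0.83 to 0.37. Of 569 values of the named genes under 19 alternatives, 536 kept their direction and side of the threshold, 23 passed it, 16 of them with array weights, and 10 changed sign. The cause of these changes was not tested. With the replicate block, where the numbers gave no sign of pairing the animals, 0 genes and 13 probes passed. Over all probes 63 passed, and the count was 0 with normexp and 75th percentile centring, 25 with normexp and quantile normalization, 17 with the filter on all arrays, 146 with trend and robust settings, 11147 with array weights, 2562 without clone 1 and 451 without clone 3. Without clone 4 it was 32, and 18, 23, 31 and 17 without normal animals 1 to 4. UGT1A6 lies near background in clones, which limits the size of its difference.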
